A study of Danio rerio with 25 samples.

Results

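Small RNA from the brains of male zebrafish (Danio rerio) aged 24 months was compared with that from fish aged 6 months. The 2 ages contributed 10 of the 25 libraries of the series, 5 each, and were taken by their age label alone. Both groups carry the strain label AB JxTü with no transgene named, and among the 5 ages sampled they are the pair in which neither label names one. RNA was made into libraries with Illumina's TruSeq small RNA kit. No treatment is labelled, and age is the labelled difference between the groups. The titles of the 6-month libraries each hold 2 numbers and those of the 24-month libraries 1, and the labels do not say what the numbers stand for. They run in separate blocks by age, so that any order of handling they reflect cannot be told apart from age. The labels do not state in words that the libraries came from separate animals, so a p-value here speaks only to the variation among these samples, which may be technical. Replicate numbers were given here within each age by the order of the samples in the series and are not in the labels. Results are described across all miRNAs of the table.

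A miRNA is cut from a hairpin precursor and guides an Argonaute protein to messenger RNAs that pair with its seed, which lowers their translation and stability. Members of a family share the seed and so a large part of their targets, while hairpins that lie next to each other are often transcribed as one precursor. Many brain miRNAs are confined to a cell type, so a bulk level reflects both cell content and the level per cell. In these bulk samples fewer cells of a type and less RNA per cell cannot be told apart.

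The deposited counts per library summed to between 3983783 and 8072968 at 6 months and between 5632881 and 10196781 at 24 months. Numbered copies of a hairpin were summed, which gave 217 miRNAs, of which 197 had enough counts to be tested. Between 201 and 206 miRNAs were detected in each library. Levels are CPM, the miRNA's count relative to the library total after scaling by TMM, a correction for differences in composition. The median Pearson correlation of log2 CPM across miRNAs was 0.974 between libraries of 6 months, 0.986 between those of 24 months and 0.963 across the ages, with no 2 libraries identical. The brain label was matched by high neuronal miRNAs: miR-9 averaged 47398 ± 4938 CPM (SD, n = 5) at 6 and 47632 ± 1756 CPM at 24 months, and miR-124 5437 ± 1137 and 7279 ± 1056 CPM. The miR-9 and miR-124 levels each sum several hairpin copies. The liver miRNA miR-122 averaged 5.52 and 13.8 CPM. Not all miRNAs known from other cells were low. The sensory miR-182, miR-183 and miR-96 summed to 11018 ± 8390 CPM at 6 and 3415 ± 1691 CPM at 24 months. The epithelial miR-200 family summed to 3723 ± 3999 and 219 ± 114 CPM.

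Of the 197 miRNAs tested, 63 (32.0%) differed between the ages at an adjusted p under 0.05 by edgeR's quasi-likelihood test, 27 (13.7%) of them higher and 36 (18.3%) lower at 24 months. The rises had a median log2 change of 0.43 and ran from 0.15 to 1.23, with 3 of at least 1. The falls had a median of -1.15, with 20 of at least 1 in size, while the median over all 197 was 0.04. For 35 miRNAs (17.8%) the 5 libraries of an age all lay above the 5 of the other, the old above the young for 15 (7.61%) and the young above the old for 20 (10.2%). Of these 35, 33 were among the 63, 13 higher and 20 lower.

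**Figure D1:**
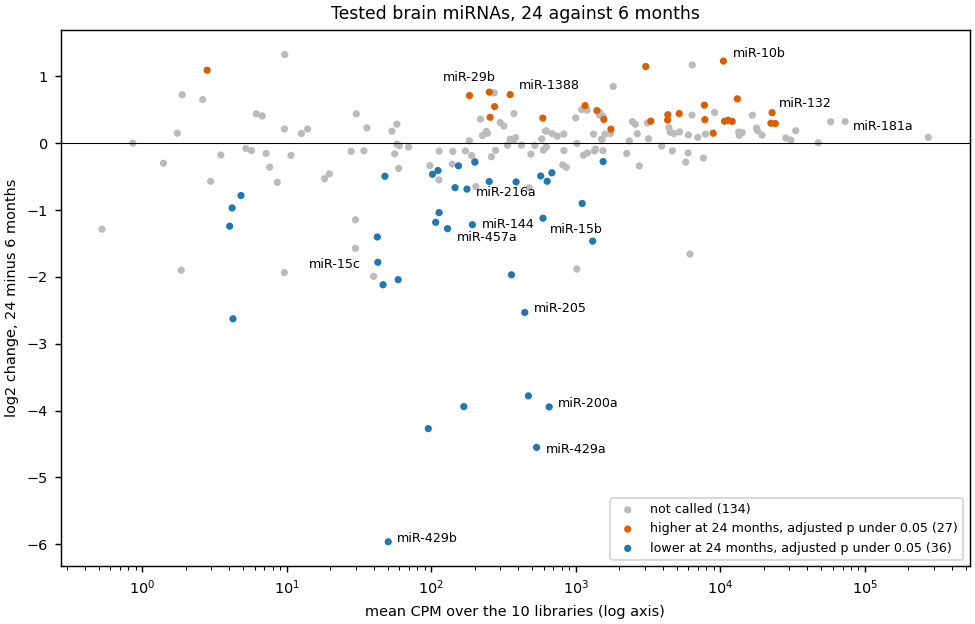
Log2 change from 6 to 24 months (vertical axis) against mean CPM over the 10 libraries (log axis) for the 197 tested miRNAs. Called rises (27, orange) stay below 1.3 on the log2 scale, while called falls (36, blue) reach -5.96 for miR-429b.

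The balance of rises and falls depended on correcting for composition and on which miRNAs and libraries entered. All TMM factors of the 6-month libraries (1.00 to 1.12) lay above all those of the 24-month libraries (0.888 to 0.989), so that scaling by library totals alone moved the median of all miRNAs from 0.04 to -0.14. It then gave 8 higher and 54 lower. DESeq2 size factors in place of TMM left the split at 27 higher and 36 lower. DESeq2's own test gave 31 and 40, limma-voom 21 and 27, and the fit without a filter 28 and 36. The split was 17 higher and 36 lower among miRNAs of at least 10 CPM, 15 and 31 in a fit of the 10 libraries alone, and 11 and 35 when epithelial and sensory miRNAs were removed before scaling. The number of calls also moved when 1 library was left out, which leaves fewer libraries in the fit. Leaving out young replicate 1, 2 or 5 reduced the 63 calls to 39, 36 and 27, and leaving out old replicate 1, 3 or 5 reduced them to 31, 24 and 31. By the same test, miRNAs with an unadjusted p under 0.05 numbered 85 in the main fit and between 72 and 85 in these repeats. None of the 63 changed direction in them. Of the 63, 17 kept their call and direction in all 18 repeats of the test, 8 with other scaling, filters, tools or samples and 10 with 1 library left out. Of the 17, 8 were higher and 9 lower. Only 10 of the 17 were also called in both of 2 repeats added after seeing the data. These left out epithelial and sensory miRNAs, or 3 young libraries rich in epithelial miRNAs that are described below. A miRNA that a filter removed from a repeat counted as not kept, as miR-30a did at a mean of 10 CPM.

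The lowest p-values belonged to the group of miR-15, miR-16 and miR-457, known for repressing cyclins and other cell-cycle genes. 3 of its 8 members fell, none rose, and the group's median was -0.16, where 18.3% of all tested miRNAs fell and 13.7% rose. miR-15c measured 59.4, 63.8, 73.6, 63.7 and 69.9 CPM in 6-month replicates 1 to 5 and 19.7, 16.4, 19.5, 26.6 and 13.8 CPM in those of 24 months. Every young library lay above every old one, and the fitted level was 3.44-fold lower (log2 change -1.78, SE 0.21, adjusted p 4.15e-06).

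miR-457a, a fish member of the same family, measured 186, 176, 190.0, 189 and 175 CPM at 6 months and 66.7, 76.5, 81.8, 82.6 and 70.2 CPM at 24 months. Its libraries formed a tight group at each age without overlap (log2 change -1.28, SE 0.18, adjusted p 3.83e-05). miR-15b measured 749, 698, 942, 851 and 819.5 and 365, 342, 397, 414 and 347 CPM, again with every young library above every old one (log2 change -1.12, SE 0.16, adjusted p 3.83e-05). All 3 falls were as large without the 3 young libraries rich in epithelial miRNAs described below (-1.84, -1.33 and -1.26).

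The other members of the group did not pass the test. miR-15a averaged 909 ± 192 CPM at 6 and 1288 ± 472 CPM at 24 months (log2 change 0.50, SE 0.25, adjusted p 0.130). The abundant miR-16b (0.07, adjusted p 0.810) and miR-16c (0.06, adjusted p 0.651) had values close to 0, and miR-16a had -0.38 (adjusted p 0.223). The summed level of the group was 6648 ± 783 CPM at 6 and 6629 ± 1805 CPM at 24 months, with miR-16b at 3109 and 3257 CPM its largest member. The low-level miR-457b had 0.15 (adjusted p 0.474).

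Both members of the miR-29 family, which limits collagen and other matrix proteins, rose. miR-29a measured 984, 872, 891, 1017 and 912 CPM at 6 months and 1345, 1497, 1304, 1302 and 1457 CPM at 24 months, without overlap (log2 change 0.56, SE 0.10, adjusted p 5.42e-04). miR-29b measured 187, 177, 171, 227 and 171 and 227, 403, 271, 334 and 350.4 CPM. Its highest young library, replicate 4, reached almost the lowest old one, replicate 1 (log2 change 0.76, SE 0.21, adjusted p 0.0153). Without the 3 epithelial-rich libraries miR-29a was still called (0.53, adjusted p 0.0332), and miR-29b was not (0.67, SE 0.31, adjusted p 0.231).

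miR-101, a brain-rich miRNA known to target the Polycomb enzyme EZH2, rose in both forms. miR-101a measured 6046, 5876, 5944, 7872 and 5442 CPM at 6 months and 8032, 10262, 8501, 9718 and 9777 CPM at 24 months (log2 change 0.57, SE 0.14, adjusted p 0.00727). Here 6-month replicate 4 stood well above the other young libraries and just under the lowest old one. miR-101a was not called without the 3 epithelial-rich libraries (0.42, SE 0.19, adjusted p 0.231). miR-101b averaged 221 ± 29.8 and 289 ± 49.5 CPM with overlap (log2 change 0.39, SE 0.13, adjusted p 0.0310), and lost its call without young replicate 1, 2 or 5 or old replicate 1, 2 or 3 (adjusted p 0.0511 to 0.111). With library totals it was not called either (0.22, adjusted p 0.208).

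Of 4 miRNAs linked to inflammation 1 rose and none fell, where 13.7% of all tested miRNAs were higher and 18.3% lower. The called member was miR-146b, which damps innate immune signalling through IRAK and TRAF adaptors in mammals. It measured 131, 200.2, 125, 126 and 114 CPM at 6 months and 230.2, 155, 212, 278 and 266 CPM at 24 months (log2 change 0.71, SE 0.16, adjusted p 0.00573). Young replicate 2 and old replicate 2 overlapped, and the other young libraries lay below all old ones. The far more abundant miR-21 averaged 31025 ± 2307 and 35310.5 ± 5251 CPM and was not called (adjusted p 0.332), and neither were miR-146a (0.50, adjusted p 0.293) and miR-155 (-0.36, adjusted p 0.572).

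miR-132 and miR-212, which in mammals share a precursor that neuronal activity induces through CREB, both rose. The miR-132 level sums several hairpin copies. miR-132-1, which lies beside miR-212, averaged 1624 CPM at 6 months. miR-132-2 on chromosome 10 and miR-132-3, which matched no gene position, averaged 8771 and 8799 CPM and hold most of the sum. miR-132 measured 19354, 17546, 19636, 20512 and 18919 CPM at 6 months and 26192, 25284, 25679.7, 21924 and 32714 CPM at 24 months (log2 change 0.46, SE 0.12, adjusted p 0.00757). No young library reached the lowest old one. miR-132 was not called without the 3 epithelial-rich libraries (0.39, SE 0.16, adjusted p 0.206). miR-212 averaged 6855 ± 519 and 8754 ± 1429 CPM (log2 change 0.35, SE 0.12, adjusted p 0.0308), overlapped through old replicate 4, and was not called with library totals (adjusted p 0.208) or without young replicate 1, 2 or 5 or old replicate 1, 3 or 5 (adjusted p 0.0550 to 0.0873).

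2 less studied miRNAs rose by similar steps. miR-1388 measured 338, 287, 239, 230.5 and 225 CPM at 6 months and 460.0, 376, 371, 522 and 459 CPM at 24 months (log2 change 0.73, SE 0.18, adjusted p 0.00757). miR-730 measured 202.8, 215, 233, 251 and 211 and 323, 321, 329.6, 291 and 363 CPM (log2 change 0.55, SE 0.12, adjusted p 0.00408). In both, every old library lay above every young one. miR-1388 was also called without the 3 epithelial-rich libraries (0.90, adjusted p 0.0399), and miR-730 was not (0.43, SE 0.17, adjusted p 0.173).

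Several abundant miRNAs rose by small steps. miR-100, of the miR-99/100 family that targets mTOR in mammals, went from 9469.6 ± 737 to 11896 ± 754 CPM (log2 change 0.33, SE 0.08, adjusted p 0.00626). let-7e, of the differentiation-linked let-7 family, went from 9948 ± 697 to 12624 ± 1626 CPM (log2 change 0.34, SE 0.08, adjusted p 0.00626). miR-27b, encoded beside miR-24, went from 20059 ± 977 to 24687 ± 1505 CPM (log2 change 0.30, SE 0.08, adjusted p 0.00875). miR-103 (0.33, adjusted p 0.00626) and miR-456 (0.38, adjusted p 0.0160) belonged to the same class. The old libraries lay above the young ones throughout in these 5. None of the 5 was called without the 3 epithelial-rich libraries (adjusted p 0.119 for let-7e to 0.231 for miR-100). With library totals miR-100 alone of the 5 was called (0.16, adjusted p 0.0460), while the other 4 ran from 0.13 for miR-27b to 0.20 for miR-456. miR-456 also lost its call without old replicate 5 (adjusted p 0.0501). Smaller still were the rises of miR-30d (0.15), which turned to -0.02 with library totals and lost its call without young replicate 1, 2, 3 or 5 or old replicate 1, 3 or 5 (adjusted p 0.0513 to 0.0677), and let-7h (0.21). miR-99, of the same family as miR-100, rose too (0.36, adjusted p 0.0475). That call was lost with library totals (adjusted p 0.315) and without young replicate 1, 2, 3 or 5 or old replicate 1, 3, 4 or 5 (adjusted p 0.0533 to 0.140).

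Of 10 let-7 members 4 rose and none fell, with a median of 0.27, where 13.7% of all tested miRNAs were higher and 18.3% lower. Besides let-7e and let-7h these were let-7c (0.35, adjusted p 0.0178) and let-7b (0.44, adjusted p 0.0492). let-7a, the most abundant member with its copies summed, averaged 51562 ± 5263 CPM at 6 and 64401 ± 13231 CPM at 24 months and was not called (log2 change 0.32, SE 0.13, adjusted p 0.0544). Each of its copies held between 8412 and 8777 CPM at 6 months, where let-7e held 9948. Its sum therefore depends on how reads matching several copies were counted, which is not given. Old replicate 4 held 85143 CPM of let-7a and old replicate 1 49074. With library totals no let-7 member was called, at a median of 0.10, and of the 4 called, let-7e was the one that kept its call without any single library; each of the other 3 lost it without at least 1 of these libraries, young replicate 1, 2, 3 or 5 or old replicate 1, 2, 3, 4 or 5 (adjusted p 0.0503 to 0.155). Mature let-7 forms are nearly identical, so reads can be shared between members.

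Among the falls, all 3 miRNAs of the miR-216 and miR-217 group, best known from the pancreas, changed together. miR-216a measured 177, 227, 221.6, 247 and 214 CPM at 6 months and 112, 141, 123, 162 and 138 CPM at 24 months (log2 change -0.69, SE 0.12, adjusted p 2.84e-04). miR-217 went from 118 ± 16.4 to 85.7 ± 12.1 CPM (log2 change -0.46, SE 0.11, adjusted p 0.00757) and miR-216b from 786 ± 92.7 to 578 ± 69.3 CPM (log2 change -0.44, SE 0.11, adjusted p 0.00757). The ages did not overlap in any of the 3. Without the epithelial-rich libraries all 3 were called at -0.79, -0.53 and -0.60. The list's name is that of its best-known tissue, and no pancreatic source was tested here.

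miR-144 and miR-451, abundant in red blood cells and essential for their maturation, fell. miR-144 measured 196, 385, 264, 249.5 and 251 CPM at 6 months and 113, 114, 99.9, 160.2 and 91.7 CPM at 24 months, without overlap (log2 change -1.22, SE 0.30, adjusted p 0.00727). miR-451 measured 1045, 2025, 1165, 1513 and 1455 and 513, 865, 865, 1113 and 501 CPM, with overlap between old replicate 4 and young replicate 1 (log2 change -0.90, SE 0.30, adjusted p 0.0301). Young replicate 2 was the highest library for both. How much blood each brain held is not given. Without the epithelial-rich libraries neither was called, with changes of -1.15 (SE 0.37, adjusted p 0.0747) and -0.80 (SE 0.39, adjusted p 0.264), and miR-451 also lost its call without young replicate 2 or 5 or old replicate 1, 3 or 5 (adjusted p 0.0549 to 0.0876).

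2 more falls kept their call in all 18 repeats of the test. miR-454b, of the miR-130, miR-301 and miR-454 family, went from 1689.5 ± 114 to 1397 ± 128 CPM (log2 change -0.27, SE 0.07, adjusted p 0.0129). miR-19c, a paralog of the proliferation-linked miR-17-92 cluster, went from 55.8 ± 2.97 to 39.6 ± 6.74 CPM (log2 change -0.49, SE 0.13, adjusted p 0.0110). Its neighbour miR-20b was called lower too but lies at 5.53 and 2.83 CPM, which is 30, 20, 19, 14 and 16 counts in the old libraries, and its call ended without old replicate 3 (adjusted p 0.0549). miR-454b was called without the 3 epithelial-rich libraries (-0.37, adjusted p 0.0314), and miR-19c was not (-0.55, SE 0.18, adjusted p 0.0782). Of 15 tested members of the miR-17-92 cluster and its paralogs 2 fell and none rose (median -0.12), and of 8 of the miR-130, miR-301 and miR-454 family 2 fell and none rose (median -0.15). With TMM and 18.3% of all tested miRNAs lower, the first share is below that background and the second near it. There neither count is a result about its family. Scaled by library totals, where 54 of 197 tested miRNAs were lower, 6 of the 15 and 6 of the 8 were. With epithelial and sensory miRNAs removed, where 35 of 185 were lower, 2 of the 15 and 5 of the 8 were. Leaving out the 3 epithelial-rich libraries, where 7 of 199 were lower, gave 0 of the 15 and 1 of the 8. These counts are of summed copies. Hairpin by hairpin, miR-92a-1 rose without overlap (0.24, SE 0.07, adjusted p 0.0176), while its other copy miR-92a-2 was not called (-0.06, adjusted p 0.514). The miR-17-92 list as a whole summed to 33375 ± 2671 CPM at 6 and 37612 ± 3096 CPM at 24 months. Most of that sum was miR-92b (16364 and 19169 CPM), miR-92a-1 (8184 and 9851 CPM) and miR-92a-2 (5198 and 5097 CPM).

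**Figure D2:**
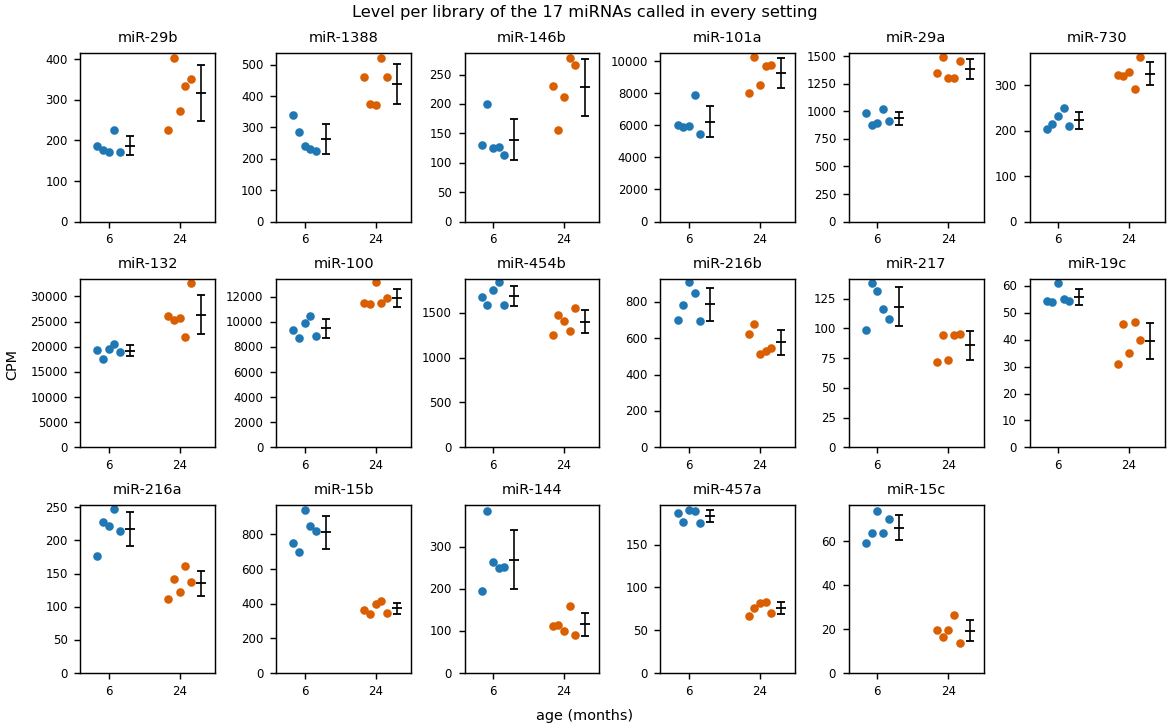
CPM in each library (points, blue for 6 and orange for 24 months) with the mean and SD (black) for the 17 miRNAs called in all 18 repeats of the test, ordered from the largest rise, miR-29b, to the largest fall, miR-15c. In 16 of the 17 the ages do not overlap, and in miR-146b young replicate 2 lies above old replicate 2.

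The largest falls were those of miRNAs known from epithelia, whose levels differed widely among the young libraries. The summed level of the miR-200 family, which keeps epithelial cells in their state by repressing ZEB factors, was 8628, 1157, 841, 470.1 and 7521 CPM in 6-month replicates 1 to 5 and 101, 360.3, 101, 259 and 272 CPM in those of 24 months. Young replicates 1 and 5 held by far the most, and the lowest young library was still above the highest old one. All 6 tested members fell, with miR-200a, miR-200b, miR-200c and miR-429a between -3.94 and -4.55, from -3.78 for miR-141 (SE 1.18, adjusted p 0.0231) to -5.96 for miR-429b (SE 1.86, adjusted p 0.0231), against a median of 0.04 over all miRNAs. miR-429b rested on 12, 13, 12, 6 and 11 counts in the old libraries, beside 1864, 49, 80, 8 and 979 in the young.

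The epidermal trio of miR-205 and both miR-203 forms was distributed differently. Their summed level was 1253, 3432, 541, 486 and 1296 CPM at 6 months and 149, 291, 139.7, 655 and 235 CPM at 24 months. Young replicate 2 was highest here, replicates 1 and 5 followed, and old replicate 4 lay within the young range. All 3 fell, miR-205 by the most (log2 change -2.53, SE 0.77, adjusted p 0.0231), followed by miR-203a (-2.12, adjusted p 0.0390) and miR-203b (-1.97, adjusted p 0.0494).

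The sum of miR-182, miR-183 and miR-96, a cluster of photoreceptors, hair cells and other sensory cells, was 20228, 6335, 2844, 5723 and 19961 CPM at 6 months and 3283, 6155, 2323, 3542 and 1772 CPM at 24 months. It was high in the same young replicates 1 and 5 as the miR-200 family, while the other young libraries and the old ones overlapped. None of the 3 was called, at -1.66 (SE 0.66, adjusted p 0.0580), -1.88 (adjusted p 0.0570) and -1.99 (adjusted p 0.0829).

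**Figure D3:**
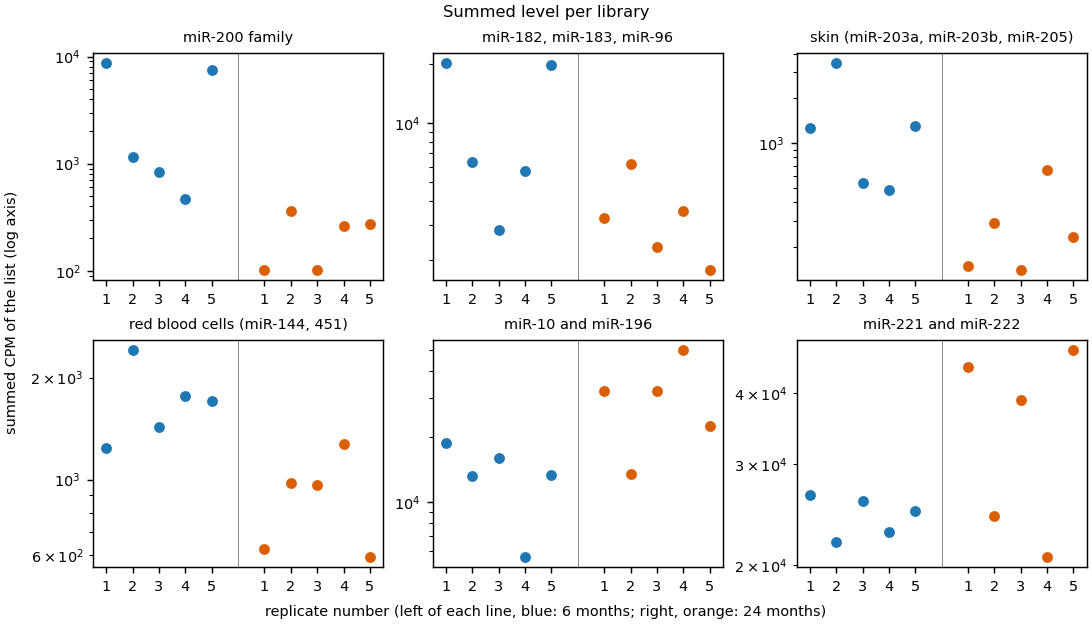
Summed CPM (log axis) of 6 lists of miRNAs in each library, with replicates 1 to 5 of 6 months in blue and of 24 months in orange. The miR-200 family and the sensory cluster peak in young replicates 1 and 5 and the skin miRNAs in young replicate 2, while the miR-10 and miR-196 list peaks in old replicate 4 and miR-221 with miR-222 in old replicates 1, 3 and 5.

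The miR-200 or the skin sum was above 2000 CPM in 6-month replicates 1, 2 and 5 and in no 24-month library. Without these 3 libraries, which leaves 2 young ones, 11 miRNAs were called, and 10 of them were among the 63. These 10 were miR-15b, miR-15c, miR-457a, miR-216a, miR-216b, miR-217, miR-454b, miR-29a, miR-146b and miR-1388. The miR-200 members then ran from -1.30 (SE 1.27) for miR-141 to -2.51 (SE 1.86) for miR-429b and the skin members from -0.52 to -0.95, none of them called. The 3 libraries were chosen by these same sums and are all young. Smaller falls of the miR-200 and skin members therefore follow from the choice and test nothing about them. Among single libraries, leaving out young replicate 1 or 5 or old replicate 1, 3 or 5 (adjusted p 0.0503 to 0.0661) ended the call of at least 1 miR-200 member, and leaving out young replicate 1, 2 or 5 or old replicate 1, 2, 3 or 5 (adjusted p 0.0504 to 0.264) that of at least 1 skin member. The part of epithelial content in the other differences was not tested beyond these values.

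Further falls were smaller without the same 3 libraries. miR-34b and miR-34c, known from cells with motile cilia, went from 152 ± 80.9 and 149 ± 85.4 CPM to 74.1 ± 20.7 and 65.5 ± 21.4 CPM, and young replicates 1 and 5 were the highest for both. Their log2 changes were -1.04 and -1.18 (adjusted p 0.0301 for each) and -0.59 and -0.65 without the 3 libraries. The third member, miR-34a, known from ageing brain in other animals, averaged 372 ± 34.1 and 394 ± 101 CPM and was not called (0.08, adjusted p 0.651). Leaving out young replicate 1 or 5 or old replicate 2, 3, 4 or 5 (adjusted p 0.0527 to 0.0996) ended the call of at least 1 of the pair.

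miR-199 and miR-214, typical of mesenchymal cells, fell as well. The miR-199 level sums several hairpin copies. miR-199-1 (822 CPM at 6 months) lies beside miR-214, while miR-199-2 (823 CPM) and miR-199-3 (274 CPM) lie on other chromosomes. miR-199 measured 2024, 3206, 817, 1217 and 2332 CPM at 6 months and 1054, 674, 519, 628 and 600.1 CPM at 24 months, highest in young replicate 2 (log2 change -1.47, SE 0.47, adjusted p 0.0269). miR-214 had the same order of the young libraries at a lower level (log2 change -1.40, SE 0.43, adjusted p 0.0231). Without the 3 libraries the changes were -0.55 and -0.71, not called, and leaving out young replicate 2 or 5 or old replicate 3 or 5 (adjusted p 0.0549 to 0.0825) also ended at least 1 of the calls. miR-143 (0.17, adjusted p 0.380) and miR-145 (0.04, adjusted p 0.824), known from vascular smooth muscle, and the endothelial miR-126a (-0.04, adjusted p 0.678) and miR-126b (0.04, adjusted p 0.777) were not called.

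Of 4 leukocyte miRNAs tested 2 fell, where 18.3% of all tested miRNAs did. miR-142a, expressed across blood cell lineages, measured 408, 649.7, 447, 427 and 381 CPM at 6 months and 305, 287, 314, 319 and 323 CPM at 24 months (log2 change -0.58, SE 0.22, adjusted p 0.0481). Young replicate 2 was again the highest, and the ages did not overlap. miR-142b changed by -0.66 (adjusted p 0.0390), while miR-150 (-0.36, adjusted p 0.187) and the neutrophil miRNA miR-223 (0.21, adjusted p 0.572) were not called. Both calls were near the threshold and at least 1 ended without young replicate 1, 2, 3, 4 or 5 or old replicate 1, 2, 3, 4 or 5 (adjusted p 0.0504 to 0.167). Of 6 muscle miRNAs tested 1 fell, where 18.3% of all tested miRNAs did, so the count is no result about muscle miRNAs. The called member, miR-133c, stood at 22, 238, 4, 7 and 22 counts in the young and 9, 9, 13, 6 and 5 in the old libraries, with young replicate 2 the highest. It was 0.07 (SE 1.20) without the 3 libraries and lost its call without young replicate 1, 2 or 5 or old replicate 1, 2, 3, 4 or 5 (adjusted p 0.0534 to 0.372). miR-725 (-2.04, adjusted p 0.0465) was highest in young replicate 2 too and changed by -1.17 (SE 0.94) without the 3 libraries, and lost its call without young replicate 1, 2 or 5 or old replicate 1, 2, 3 or 5 (adjusted p 0.0616 to 0.140). miR-30a fell at a low level, from 5.65 ± 2.47 to 2.40 ± 0.270 CPM, with young replicates 1 and 2 the highest in counts (55, 83, 17, 17 and 21 in the young and 21, 12, 21, 15 and 15 in the old libraries; log2 change -1.24, SE 0.27, adjusted p 0.00409), and had -0.54 without the 3 libraries.

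The largest rises lay near the threshold and varied among the old libraries. miR-10b, encoded within Hox clusters and marking the hindbrain and spinal cord, measured 8708, 6449, 7237, 2840.4 and 6119.7 CPM at 6 months and 15916, 7406, 15259, 23505 and 11436 CPM at 24 months (log2 change 1.23, SE 0.44, adjusted p 0.0411). Young replicate 4 was the lowest and old replicate 4 the highest, and old replicate 2 fell within the young range. miR-10d had the same order of the old libraries (1.15, adjusted p 0.0494), and miR-10c was not called (1.17, adjusted p 0.0642). Leaving out young replicate 1, 2, 3, 4 or 5 or old replicate 1, 3, 4 or 5 (adjusted p 0.0537 to 0.140) ended the call of miR-10b or miR-10d, and with library totals neither was called. The share of hindbrain in each dissected sample is not given.

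miR-221 split the old libraries into separate levels. It measured 10776, 9476, 9946, 10458 and 10031 CPM at 6 months and 20318, 10745, 18719.9, 8678 and 21894 CPM at 24 months (log2 change 0.66, SE 0.23, adjusted p 0.0381). Old replicates 1, 3 and 5 lay above all young libraries, while replicates 2 and 4 lay within or below the young range. miR-222a, its neighbour, measured 23955, 13544, 20171, 11939.8 and 25588 CPM in the old libraries and was not called (0.42, adjusted p 0.112). miR-128, an abundant neuronal miRNA, was also higher in old replicates 1, 3 and 5 (87018, 61715, 89867, 70331 and 96939 CPM) and was not called (log2 change 0.32, SE 0.13, adjusted p 0.0544). The call of miR-221 ended with library totals (adjusted p 0.0922) and without young replicate 1, 2, 3 or 5 or old replicate 1, 3 or 5 (adjusted p 0.0540 to 0.107).

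The most abundant miRNA, miR-181a, took between 26.9 and 29.4% of counts in the young libraries and between 22.2 and 30.8% in the old. It was not called on the scaled level (0.09, adjusted p 0.430). The 10 most abundant miRNAs together held between 58.4% and 63.4% of counts in the 10 libraries. Of these 10, miR-132, miR-27b and miR-724 were called, all higher, where 32.0% of all tested miRNAs were called and 13.7% were higher. miR-724 had 0.29 (adjusted p 0.0411) and was not called with library totals (adjusted p 0.315) or without young replicate 1, 2 or 5 or old replicate 1, 2, 3 or 5 (adjusted p 0.0513 to 0.123). miR-9, miR-26a, miR-26b and miR-21 had adjusted p-values of 0.949, 0.555, 0.461 and 0.332. Of 16 neuronal miRNAs tested 1 was called, miR-135b, against 32.0% of all tested miRNAs. It fell from 667 ± 63.6 to 475 ± 50.2 CPM without overlap (log2 change -0.49, SE 0.18, adjusted p 0.0411). That call ended without young replicate 1, 2, 3 or 5 or old replicate 1, 3, 4 or 5 (adjusted p 0.0583 to 0.0876). The list's median was 0.04. Hairpin by hairpin, miR-7a-3 was called higher (0.53, adjusted p 0.0393) and miR-153c lower (-0.31, adjusted p 0.0460), besides miR-135b. miR-338, known for promoting oligodendrocyte differentiation, rose in the bulk samples (log2 change 0.33, SE 0.11, adjusted p 0.0290), while miR-219, also needed for the maturation of these cells, was not called (0.14, adjusted p 0.296). miR-204, abundant in choroid plexus and eye, rose from 3689 ± 328 to 4959 ± 1009 CPM (log2 change 0.43, SE 0.14, adjusted p 0.0265). Its call ended with library totals (adjusted p 0.132) and in the fit of the 10 libraries alone (adjusted p 0.102). It also ended without young replicate 2 or 5 or old replicate 1, 3 or 5 (adjusted p 0.0560 to 0.0712). miR-184, the other tested member of that list, was not called, and its hairpin copies had -0.25 and -0.42 (adjusted p 0.706 and 0.543). The miR-338 call ended with library totals (adjusted p 0.315) and without young replicate 1, 2 or 5 or old replicate 1, 2 or 3 (adjusted p 0.0513 to 0.0750).

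**Figure D4:**
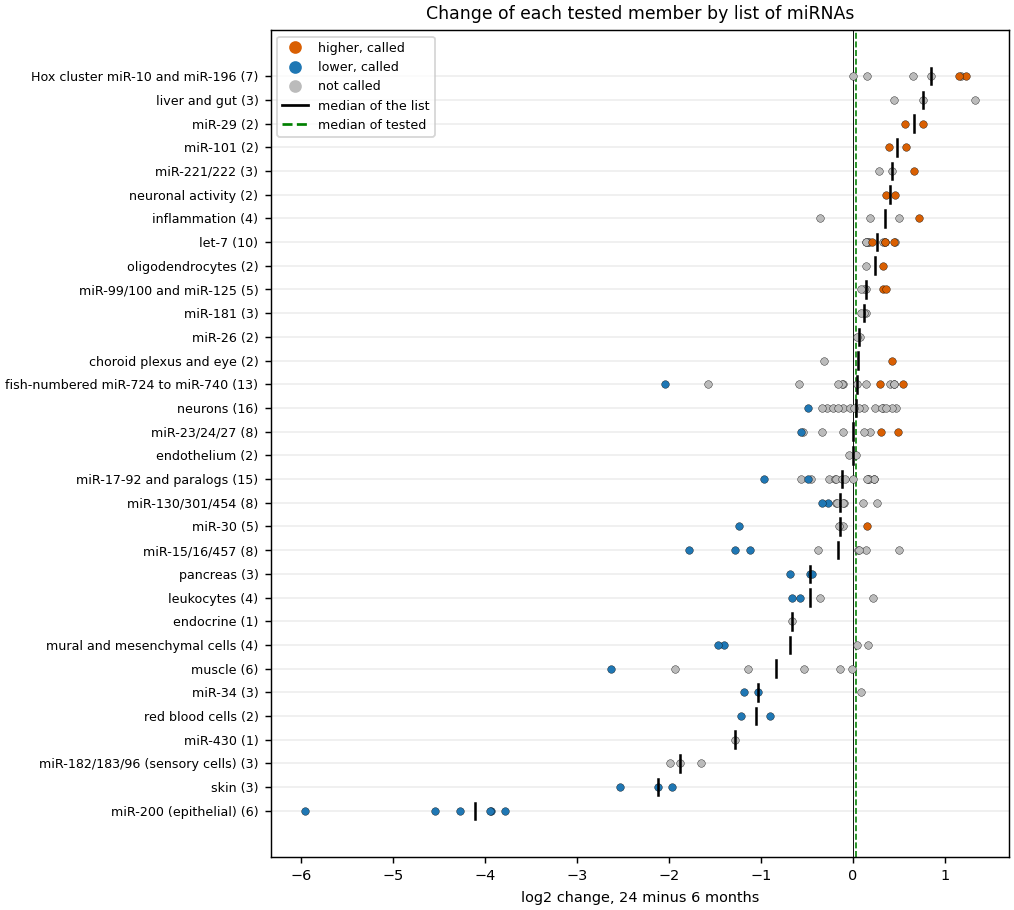
Log2 change from 6 to 24 months of each tested member of 32 lists, with the number tested in brackets, called members coloured and the list median as a black bar. The miR-200 family lies at a median of -4.11, the miR-10 and miR-196 list at 0.85 and the median of all 197 tested miRNAs (dashed) at 0.04.

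The lists hold 158 of the 197 tested miRNAs. Of the 39 outside them 4 were higher and 4 lower, where 13.7% and 18.3% of all tested miRNAs were. The higher ones were miR-103, miR-1388, miR-456 and the low-count miR-202, and the lower ones miR-190a (log2 change -0.28, SE 0.09, adjusted p 0.0290), miR-460 (-0.41, adjusted p 0.0231), miR-2188 (-0.57, adjusted p 0.0231) and miR-193a (-0.78, adjusted p 0.0381). miR-190a measured 194, 214, 223, 246 and 221 CPM at 6 and 169, 168, 204, 165 and 197 CPM at 24 months, and the lowest young library overlapped the old ones. The calls of miR-190a, miR-460, miR-2188, miR-193a and miR-202 were each lost without at least 1 of these libraries, young replicate 1, 2, 4 or 5 or old replicate 1, 2, 3, 4 or 5 (adjusted p 0.0504 to 0.122).

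Hairpins that lie within 10000 bases of each other were taken from RefSeq gene positions of the assembly GRCz12tu, which matched 340 of 346 hairpins and gave 52 groups. Tested hairpin by hairpin, miR-15b and its neighbour miR-457a fell together (-1.15 and -1.31). miR-15c fell by 1.81 on the log2 scale while miR-16a beside it had -0.40 (SE 0.24, adjusted p 0.215), and the difference between them was not tested. The miR-15a copies, each beside a miR-16 hairpin, had 0.51 and 0.44 and were not called. Copies of the same mature sequence can share reads, and how such reads were counted is not given.

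Other groups held several called hairpins. miR-29a and miR-29b-2 rose by 0.53 and 0.71, and miR-212 and miR-132-1 by 0.32 and 0.55. The 3 hairpins of miR-216a, miR-216b and miR-217, the pairs of miR-144 with miR-451 and of miR-34b with miR-34c, and both miR-200 clusters fell as groups. miR-301b (-0.37) and miR-454b (-0.30) fell beside miR-130b (-0.13, adjusted p 0.244) and miR-130c-2 (0.06, adjusted p 0.653), which were not called. The summed miR-301b lost its call without young replicate 5 or old replicate 1 or 3 (adjusted p 0.0503 to 0.0608). Among miR-27 forms, miR-27b beside miR-24-3 was called higher (0.27) and both miR-27c copies on chromosome 3 lower (-0.60 and -0.59). The difference between these loci was not tested. The summed miR-27b was not called with library totals (0.13, adjusted p 0.219). miR-27d, at a further locus, was called on the summed table (0.49, adjusted p 0.0468), not hairpin by hairpin, and lost that call without any 1 of the 10 libraries (adjusted p 0.0549 to 0.110). The summed miR-27c was -0.04 (SE 0.23) without the 3 epithelial-rich libraries and lost its call without young replicate 1, 2 or 5 or old replicate 1, 2, 3, 4 or 5 (adjusted p 0.0618 to 0.230).

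**Figure D5:**
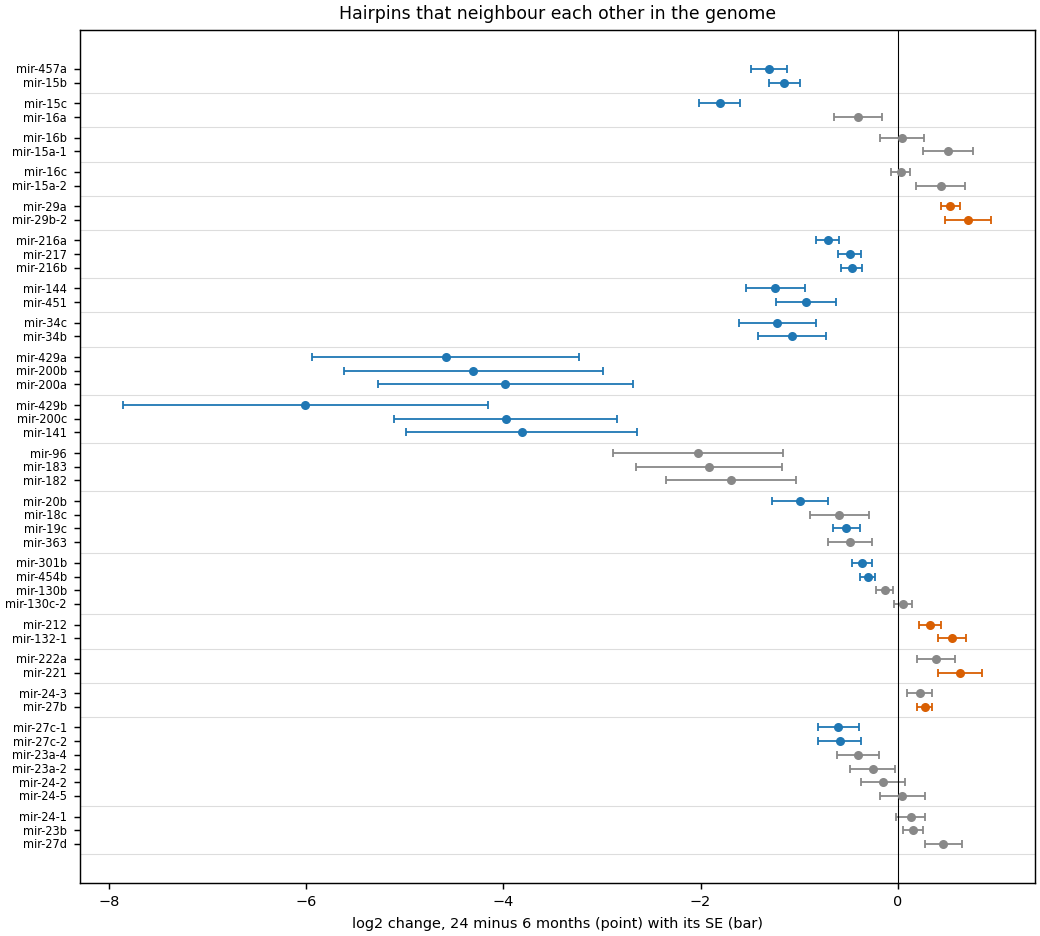
Log2 change from 6 to 24 months with its SE for single hairpins in 18 of the 52 groups of genomic neighbours, chosen for this plot after the values were seen. Called rises are orange, called falls blue and hairpins not called grey, and miR-15c at -1.81 stands beside miR-16a at -0.40.

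The libraries of the other ages carry Tg(flk:mCherry) at 12, Tg(pu.1:GFP) at 36 and Tg(wt1a:GFP) at 42 months. They entered the comparison through the low-count filter, the scaling and the estimate of the spread. Their own levels are given for some miRNAs as examples, beside those of 24 months. miR-15c averaged 44.4 ± 12.1 CPM at 12, 21.1 ± 4.65 at 36 and 19.8 ± 3.43 CPM at 42 months. The 24-month mean of 19.2 CPM was thus near those of the older fish, and the 12-month mean lay between. miR-216a stood at 134 ± 17.4, 132 ± 12.5 and 132 ± 14.1 CPM at these ages, all within 1 SD of its 24-month mean of 135. miR-730 averaged 263 ± 42.2, 257 ± 47.7 and 276 ± 12.2 CPM, below its 24-month mean of 325, and miR-132 21685 ± 2485, 21243 ± 2795 and 22387 ± 3585 CPM, below its 24-month mean of 26359. miR-19c averaged 40.3 ± 5.74, 51.2 ± 6.72 and 51.5 ± 6.39 CPM, at 36 and 42 months nearer its 6-month mean of 55.8 than its 24-month mean of 39.6. miR-103 averaged 3004 ± 284, 3232 ± 216 and 3037 ± 114 CPM, below its 24-month mean of 3676. These levels are a description, since line differs with age there.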

How the data were processed

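Small RNA libraries (Illumina TruSeq small RNA kit, total RNA, per the labels' protocols) gave raw counts per hairpin, deposited by the authors as whole numbers without scaling. The roles of the tools are not stated: SAMtools 1.3.1-9, BWA 0.7.12-r1039, Trimmomatic 0.36 and CASAVA 1.8.4 appear in the submitters' processing notes. How multiply matching reads were counted, with which counter and annotation and on which genome build, is not given in the sources used here. All 25 count columns were used, so that 0 were not used. The table's 346 hairpins were summed by name to 217 miRNAs. Each count joins the reads of 2 hairpin arms, and among 50 names with several counted copies 32 have copies within 10% of each other. If a read was counted at each copy it matches, summed levels and their ranking would be raised by copy number, which was not tested.

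miRNAs were kept with filterByExpr (count minimum 10, total minimum 15). R 4.3.3 and edgeR 4.0.16 were used: TMM factors, a robust quasi-likelihood fit of all 25 libraries by age and the contrast of 24 against 6 months, with Benjamini-Hochberg adjustment over 197 miRNAs and calls at 0.05. The SE is approximated from the F statistic. The 8 alternatives other than left-out libraries used DESeq2 size factors, library totals, no filter, a mean of 10 CPM, DESeq2 1.42.0, limma-voom (3.58.1), the 10 libraries alone and the highest hairpin copy; 10 more left out 1 library each. Removing epithelial-rich libraries (limit 2000 CPM) or epithelial and sensory miRNAs was added after seeing the data. The test was also run on simulated data in which the spread between libraries was capped. That run does not cover miRNAs of larger spread, such as the miR-200 family. A count of 0 allows up to 3 counts, or 0.294 to 0.753 CPM in these libraries, for counting error only.

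The comparison, lists and named miRNAs were chosen with earlier results of these data known. Named were called miRNAs without overlap and the lowest p (12 a direction), the 10 largest rises and falls at 10 CPM or more, the 10 most abundant, the 10 largest CPM differences and called list members. Seed groups were not used here.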

Additional observations from a re-analysis of the deposited data

Results flagged for a closer look

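Each of the 69 named miRNAs was examined at both ages for a library far from the other 4 of its group, by Dixon's criterion, which marks about 1 in 20 groups by chance. Of 138 groups 11 had such a library. 6-month replicate 2 accounted for 5 of them. It held the lowest miR-128, at 52723 CPM where the next was 64917, and the highest miR-133c (26.2 CPM, next 5.12), miR-142a (649.7 CPM, next 446.9), miR-146b (200.2 CPM, next 130.6) and miR-203b (1620.2 CPM, next 385.4).

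6-month replicate 4 held the highest let-7h (1810.4 CPM, next 1612) and the highest miR-101a (7872 CPM, next 6046), and 6-month replicate 3 the highest miR-19c (61.1 CPM, next 55.0). At 24 months replicate 1 held the highest miR-199 (1054 CPM, next 673.8) and the highest miR-214 (34.2 CPM, next 22.1), and replicate 4 the highest miR-205 (292.1 CPM, next 99.8). These values were kept in all results, and what set the libraries apart was not tested.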

How the results depend on the processing

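Of the 63 calls, 32 held in all 8 alternatives other than left-out libraries and 21 without any single library, where a miRNA removed by a filter counted as lost. The count was 63 with DESeq2 size factors, 62 with library totals, 64 without a filter, 71 with DESeq2's own test, 48 with limma-voom, 46 in a fit of the 10 libraries and 58 with the highest hairpin copy. It was 53 at a mean of 10 CPM and ran from 24 to 61 when 1 library was left out. Without the 3 epithelial-rich libraries it was 11, where fewer young libraries remain, and without epithelial and sensory miRNAs 46. Over the 69 named miRNAs and 20 settings, 980 values kept direction and side of the threshold, 347 lost the call, 17 gained it and 22 changed sign.

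The sign changes concerned 6 miRNAs, 4 of which were not called in the main comparison. With library totals the log2 change was -0.0851 for miR-181a, -0.124 for miR-26a, -0.0937 for miR-26b, -0.162 for miR-9 and -0.0222 for miR-30d. At a mean of 10 CPM it was -0.00870 for miR-26a and -0.0476 for miR-9, and in the fit of 10 libraries -0.0315 and -0.0695. With the highest hairpin copy miR-9 had -0.101, and with 1 library left out it ran from -0.0356 to 0.0462. Without the epithelial-rich libraries miR-181a had -0.0308, miR-9 -0.126 and miR-133c 0.0673, and without epithelial and sensory miRNAs miR-181a had -0.0253, miR-26a -0.0641, miR-26b -0.0311 and miR-9 -0.103. The cause was not tested. No paired analysis was run because the labels give no pairing. Depth limits miRNAs under about 5 CPM, such as miR-202, miR-20b and miR-30a.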

Other observations

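Some miRNAs outside the calls had levels that varied several-fold between libraries of an age. The endocrine miR-375 measured 125, 1729.6, 46.1, 73.5 and 939 CPM at 6 months and 41.5, 1382, 31.1, 326 and 55.9 CPM at 24 months, with young replicates 2 and 5 and old replicate 2 the highest, and was not called (-0.67, SE 1.02, adjusted p 0.622). The liver miRNA miR-122 measured 3.40, 7.27, 4.51, 4.97 and 7.45 and 14.6, 7.40, 17.8, 2.15 and 27.2 CPM and was not called (1.33, adjusted p 0.223). miR-190b, which had too few counts to be tested, held 3, 3, 13, 2 and 2 counts in the young and 45, 66, 0, 1 and 2 in the old libraries, so that old replicates 1 and 2 stood apart.

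The hairpin miR-455-2, singled out after its values were seen, fell from 36.3 to 9.44 CPM without overlap (log2 change -1.97, SE 0.44, adjusted p 0.00554 over 269 hairpins). The other copy, miR-455-1, had -0.54 (adjusted p 0.133) at 212 and 149 CPM, and the summed miR-455 was not called (-0.65, adjusted p 0.0756). Of miR-430, the family that clears maternal messages in the embryo, miR-430b was the tested member, with 3, 9, 0, 11 and 1 counts in the young and 5, 0, 6, 0 and 1 in the old libraries, and was not called (-1.29, SE 1.31, adjusted p 0.450). The family's sum was at most 2.28 CPM at 6 and 0.883 CPM at 24 months.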
